A study of Homo sapiens with 15 samples.

Results

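The regions described here are places on the autosomes where SMC3 was called in cells with wild-type (WT) RAD21 and where no other peak list of the series had a call. They were found by joining every peak of the 6 lists that overlapped by at least 1 bp and keeping the joined regions with a WT SMC3 peak only. This gave 5493 regions of 96158 on the 22 autosomes, and each of them held exactly 1 peak. They were chosen by presence and absence of calls in all 6 lists, so their absence from the Q592* SMC3 list and from the GATA2 and RUNX1 lists is their definition and not a result. Absence of a call is not absence of the protein: the lists say nothing of signal below their threshold.

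The cells were TF-1, a human erythroleukemia line grown in medium with cytokines. They were transduced with a doxycycline-inducible vector that carried WT RAD21 or RAD21 Q592*, in which a stop codon truncates the protein, and both lines received doxycycline for 6 days. The labels do not say that the cells' own RAD21 was removed, nor whether each line was 1 clone. For SMC3 each line has 2 ChIP libraries by its labels, deposited as 1 pooled list, and each line has 2 input libraries. GATA2 has 2 libraries per line, and RUNX1 has 2 in WT and 1 in Q592*. There is therefore no replicate spread, and no difference below was tested. Intervals are 95% Wilson intervals for shares. They cover counting error only, and regions are not replicates of a condition.

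Cohesin is a ring of SMC1A, SMC3 and RAD21 with a STAG subunit. It holds sister chromatids together and extrudes chromatin loops, and it is typically halted at sites bound by CTCF, where most strong cohesin peaks of a genome are found. Weaker cohesin peaks are also known at promoters and enhancers. RAD21 closes the ring, and truncating mutations of cohesin genes recur in myeloid leukaemia. GATA2 is a zinc-finger factor that maintains blood stem cells, and RUNX1 is a Runt-domain factor needed to form them. No genome or annotation of build hg19, the build of the lists, was used here, so regions are named by position and no gene, motif or sequence is given.

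Of the regions with a WT SMC3 peak, 13.6% were in no other list (5493 of 40491). Among those with neither transcription factor, 5493 of 27748 had no Q592* SMC3 peak (19.8%, interval 19.3 to 20.3%), and the remaining 22255 were called in both lines. Where GATA2 or RUNX1 was also called in either line, the share without a Q592* SMC3 peak was 48.8% (6217 of 12743). The 5493 regions made up 46.9% of the 11710 WT SMC3 regions that were not called in Q592*, which are 28.9% of all WT SMC3 regions. In the other direction 1946 regions carried SMC3 in Q592* and in no other list, 8.04% of the 24201 Q592* regions with SMC3 alone. WT-only regions outnumbered these Q592*-only regions by a ratio of 2.82. The WT SMC3 list is the longer one, with 42353 peaks against 32789. When its weakest peaks were removed to bring it to the Q592* length, 2538 WT-only regions were left. They were 8.02% of all WT SMC3 regions in the trimmed list, against 13.6% before. The 8.04% of Q592* is over SMC3-alone regions, so the 8.02% is not comparable with it. The number of Q592*-only regions after trimming is not given here. These counts follow from the rule and serve as the background of what follows.

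The WT-only regions were weak sites. Their −log10 q, the authors' significance of the summit after adjustment over the list, had a median of 6.72, with quartiles of 4.66 and 9.94 and a range from 2.01 to 48.9. The SMC3-alone regions kept in both lines had a WT median of 39.0. The fold enrichment, the ratio of ChIP signal to local background at the summit, had a median of 3.80 in the WT-only regions and 7.10 in the kept ones. Only 171 of the 5493 (3.11%) reached a −log10 q of 20, against 16500 of the 22255 kept regions (74.1%). The peaks were also narrow, with a median of 166 bp against 308 bp for the WT peaks of kept regions, and 417 of them (7.59%) had the narrowest width in the list, 126 bp. Among peaks with a −log10 q of 5 to 10 the median widths were 158 and 180 bp, closer to each other. The Q592*-only regions had a median −log10 q of 7.34, a fold of 3.73 and a peak width of 191 bp in their own list. The narrowest peak of that list was 151 bp, so widths are not directly comparable between the lists. WT SMC3 regions without a Q592* SMC3 peak, where GATA2 was called in both lines, had 6.09, 3.68 and 205 bp. These traits are therefore not particular to the WT-only regions.

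Strength ordered the shares in both directions. Of the SMC3-alone regions of WT with a −log10 q of 2 to 5, 84.9% had no Q592* peak (83.2 to 86.5%, n = 1865). The share was 60.8% from 5 to 10 (n = 4196), 23.6% from 10 to 20 (n = 5016) and 2.21% from 20 to 50 (n = 7744). At 50 and above none of 8927 was missing from the Q592* list, which allows a share of up to 0.043%. In the same bins of its own list, Q592* had smaller shares of regions without a WT peak, at 50.2%, 31.8%, 10.2% and 0.70%, and none of 7742 at 50 and above. Strength helped to decide which regions entered the class, so these shares are a description.

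**Figure D1:**
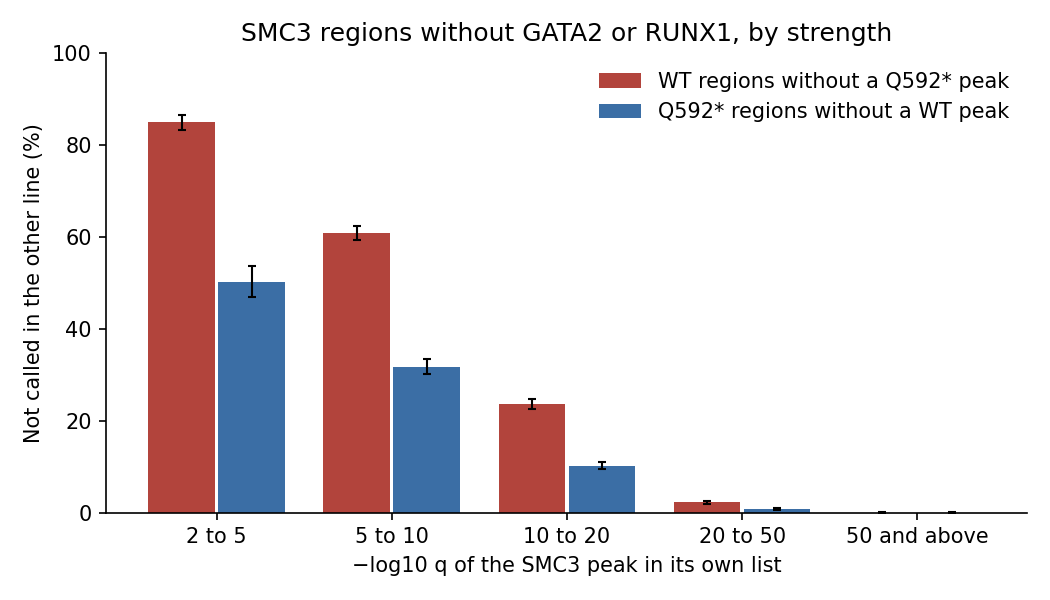
Percentage of SMC3 regions without GATA2 or RUNX1 that were not called in the other line, by the −log10 q of the peak in its own list; bars are shares and whiskers 95% Wilson intervals. For WT regions the share falls from 84.9% to 23.6% over the first 3 bins and is 0 in the last, and the Q592* bars are lower in every bin where either is above 0.

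The summits rested on few reads. Whole ChIP reads could be recovered from the deposited fold and −log10 p at all 5493 summits. The median was 33 reads (quartiles 27 and 44, range 17 to 270), at which counting error alone is 17.4% (SD), while kept regions had a median of 98 reads in WT. The Q592*-only regions had a median of 40 reads in Q592*. WT SMC3 regions that lost their call where GATA2 was called in both lines had 32 in WT. The local background at the summit was at the genome-wide value of the list in 1254 WT-only regions (22.8%), above 2 times that value in 1725 (31.4%) and above 5 times in 217 (3.95%). Kept regions lay above 2 times more often (55.6%). Both the WT-only and the kept class thus held many regions at no more than 2 times the genome-wide background. These made up a larger share of the WT-only class.

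How far the signal must have fallen to be missed was set by the threshold of the Q592* list. For each region the WT summit pileup was divided by the smallest pileup that the Q592* list would have called there, each in units of its own genome-wide background and with the local background carried over from WT. The median ratio was 1.42 (quartiles 1.24 and 1.67). In 1410 regions (25.7%) it was below 1.25, and in 51 of these it was below 1, so that these 51 would, under these assumptions, have been missed at unchanged signal. In 503 regions (9.16%) a fall of at least 2-fold was needed, and in 23 of at least 3-fold. The Q592*-only regions, measured in the same way against the WT threshold, had a median of 1.47, and 181 of 1946 (9.30%) needed at least 2-fold. WT SMC3 regions that lost their call where GATA2 was called in both lines had a median of 1.38, and 195 of 4935 (3.95%) needed at least 2-fold. The ratio gives the smallest fall that would end the call under these assumptions. It uses summit height alone, and differences in fragment length between the lists were not taken into account. The narrowest peak was 126 bp in the WT and 151 bp in the Q592* SMC3 list. The lower quartile of the WT-only peak widths was 141 bp. Whether more than the 51 regions would have been missed at unchanged signal because of their width was not tested.

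**Figure D2:**
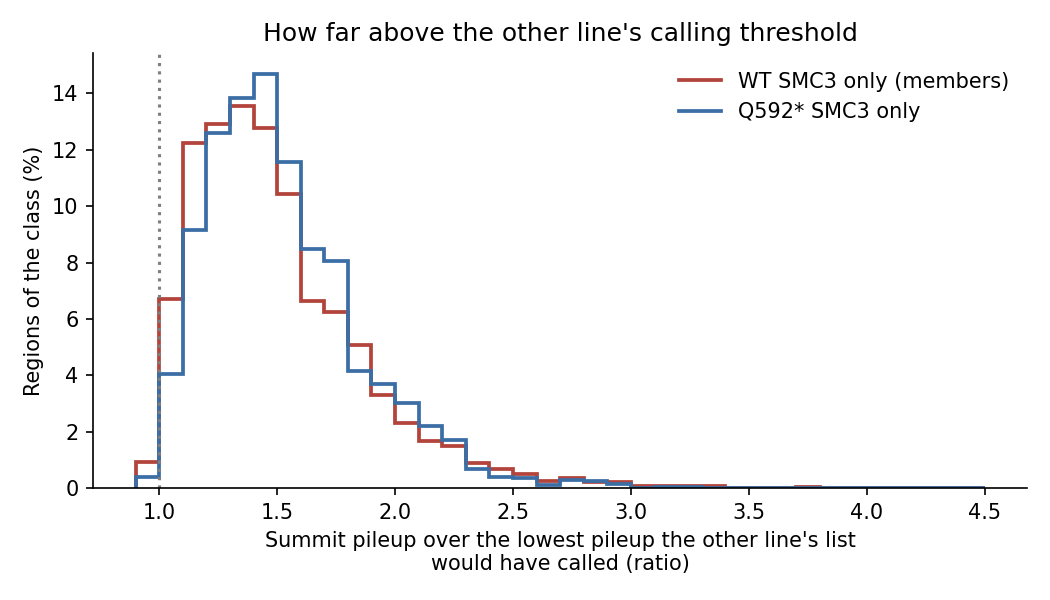
Distribution of the ratio between a region's summit pileup and the lowest pileup that the other line's list would have called at the same place, for WT-only regions (5493) and Q592*-only regions (1946); the dotted line marks a ratio of 1. Both curves peak between 1.3 and 1.5, and few regions of either class lie beyond 2.

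The few strong members needed larger falls, which follows in part from choosing them by −log10 q. The 20 with the highest −log10 q had values of 31.7 to 48.9, folds of 4.72 to 12.6 and 59 to 121 reads, and each needed a fall of 2.43-fold or more. The first lay on chromosome 11 from 108288311 to 108288604 and had 77 reads at close to the genome-wide background (1.04 times). Its fold was 12.6, and its signal had to fall 4.38-fold to be missed. It was isolated: the nearest SMC3 site called in both lines was 230 kb away, and the nearest transcription factor region, with RUNX1 in both lines, 11.5 kb away. The second, on chromosome 3 from 42613861 to 42614130, had 107 reads and a fold of 7.55 over a background of 2.72 times the genome-wide value, and needed a fall of 3.40-fold.

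The third, on chromosome 3 from 99809242 to 99809540 (fold 7.98, 94 reads), had GATA2 peaks of both lines only 0.07 kb away. A region on chromosome 1 from 192578248 to 192578552 (fold 11.2, 66 reads, genome-wide background) needed 3.76-fold, although an SMC3 site called in both lines lay 0.802 kb away. A region on chromosome 9 from 2181893 to 2182126 (fold 11.0, 65 reads) needed 3.70-fold and had no other SMC3 site of both lines within 49.1 kb. On chromosome 19 from 31157287 to 31157526 (fold 6.65, 102 reads) the nearest GATA2 or RUNX1 region was 198 kb away, the largest such distance among the 20. Across the 20, 13 had a GATA2 or RUNX1 region within 10 kb and 4 had an SMC3 site of both lines within 10 kb. For comparison, these shares were 57.3% and 39.2% of all members. They were 46.8% and 25.7% of the 171 members with a −log10 q of 20 to 50.

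At the edge of the rule, the values on both sides overlapped. The 10 members closest to a peak of another list lay 0 to 4 bp from it and had a −log10 q of 2.55 to 7.28. The 10 WT SMC3 regions kept out by the smallest overlap shared 1 to 4 bp with a GATA2 peak and had values of 2.80 to 12.1. The weakest members had a −log10 q of 2.01 with 23 reads.

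"Away from GATA2 and RUNX1" holds only in the sense of no overlap. The nearest GATA2 or RUNX1 region of either line was a median of 7.21 kb away (quartiles 1.66 and 21.9 kb), compared with 15.3 kb for kept SMC3-alone regions and 12.2 kb for Q592*-only ones. It lay within 10 kb of 57.3% of the WT-only regions (56.0 to 58.6%), of 38.6% (37.9 to 39.2%) of the kept ones and of 45.2% (43.0 to 47.4%) of the Q592*-only ones. Within 1 kb the shares were 19.0%, 6.26% and 12.2%. WT SMC3 regions without a Q592* SMC3 peak, where GATA2 was called in both lines, had higher shares still. Another GATA2 or RUNX1 region lay within 10 kb of 76.8% of them and within 1 kb of 24.7%. Such closeness is therefore not particular to the WT-only regions. Kept regions are joined from peaks of both lines and are wider, with a median of 380 bp against 166 bp (WT-only) and 191 bp (Q592*-only). A wider region more readily overlaps a nearby GATA2 or RUNX1 peak and then leaves its class. The rule itself thus lowers the number of short distances among kept regions, to an extent that was not measured.

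The same order was found for each factor and line. A WT GATA2 peak lay within 10 kb of 43.7% of the WT-only and 24.7% of the kept regions, and a Q592* GATA2 peak within 10 kb of 53.0% and 34.9%. For RUNX1 the shares were 18.2% and 8.04% with WT peaks and 24.1% and 13.8% with Q592* peaks. The lists differ in length, so the shares compare classes of regions, not factors or lines.

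The difference was also seen within bins of −log10 q, which match strength only roughly: in the bin of 5 to 10 the median number of reads was 31 in WT-only and 36 in kept regions. At a −log10 q of 5 to 10, 56.5% of the WT-only regions (54.6 to 58.4%, n = 2553) and 37.98% of the kept ones (35.7 to 40.4%, n = 1643) had a GATA2 or RUNX1 region within 10 kb. At 10 to 20 the shares were 46.1% and 35.9%. Read the other way, in the bin of 5 to 10 the share of SMC3-alone regions that were missing from the Q592* list fell with distance from the nearest GATA2 or RUNX1 region. It was 75.6% up to 1 kb (72.0 to 78.8%, n = 622), 67.3% from 1 to 10 kb (n = 1444), 54.1% from 10 to 100 kb (n = 1738) and 43.4% beyond 100 kb (38.5 to 48.3%, n = 392). In the bin of 10 to 20 it fell from 35.6% (31.0 to 40.5%) up to 1 kb to 18.3% (15.5 to 21.6%) beyond 100 kb. In the bin of 20 to 50 it was 2.83% up to 1 kb and 1.41% beyond 100 kb, with intervals that overlap. The limit set by the width of kept regions holds for the shortest distances here too.

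**Figure D3:**
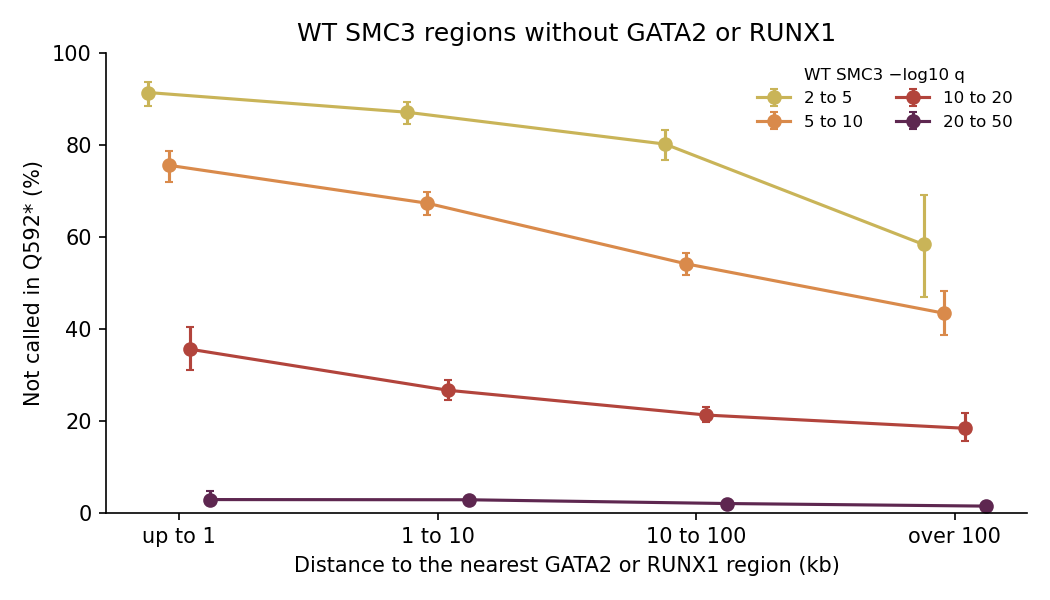
Percentage of WT SMC3 regions without GATA2 or RUNX1 that were not called in Q592*, by distance to the nearest GATA2 or RUNX1 region of either line and by the −log10 q of the WT SMC3 peak; whiskers are 95% Wilson intervals. In the bin of 5 to 10 the share falls from 75.6% to 43.4%, and in the bin of 20 to 50 it stays under 3%.

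The WT-only regions were interspersed with kept cohesin sites. The nearest SMC3 site called in both lines was a median of 16.4 kb away (quartiles 4.06 and 43.2 kb), against 20.2 kb between kept SMC3-alone regions and their nearest such neighbour. Within 1 kb of such a site lay 12.9% of the WT-only regions (12.1 to 13.8%) and 5.21% of the kept ones (4.92 to 5.51%). The Q592*-only regions were like the WT-only ones, with 12.5% (11.1 to 14.1%) within 1 kb. Within 10 kb the shares were 39.2% of the WT-only, 33.2% of the kept and 41.7% of the Q592*-only regions. In the bin of 5 to 10 the WT-only and kept shares within 1 kb were 12.6% and 8.46%. From 10 to 20 they were 6.67% (5.38 to 8.23%) and 5.04% (4.39 to 5.78%), with intervals that overlap. Within 10 kb, in the bin of 20 to 50, the WT-only share was 25.7% (19.8 to 32.8%) and the kept share 30.8% (29.7 to 31.8%). These intervals overlap as well. Region width limits the shortest of these distances too. Along the chromosome, both neighbouring WT SMC3 regions were kept for 45.5% of the members and neither for 14.2%, against 62.1% and 5.44% for kept SMC3-alone regions.

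Most members stood singly among the WT SMC3 regions, with 3865 runs of 1 and 602 pairs, and longer runs were few: 98 of 3, 22 of 4, 6 of 5 and 2 of 6. A run ended at any WT SMC3 region that was not a member, whether or not that region was kept in Q592*. Members were 13.6% of the WT SMC3 regions, so many single ones follow from that share alone. The number of runs to be expected from it was not calculated. One run of 6 spanned 46.6 kb on chromosome 13 from 27787680 to 27834270, with −log10 q from 2.13 to 8.22. The other spanned 201 kb on chromosome 1 from 245003690 to 245204854, with values from 2.55 to 8.20. Each run thus held weak peaks alone.

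The share of SMC3-alone regions that were missing from the Q592* list varied between chromosomes. It was lowest on chromosome 19 (11.2%, 9.41 to 13.2%), 22 (12.7%) and 17 (12.8%) and highest on chromosome 6 (27.2%, 25.3 to 29.3%), 13 (27.2%) and 21 (24.9%). Chromosome 19 had 119 members beside 947 kept SMC3-alone regions, and chromosome 6 had 523 beside 1398. In the bin of 5 to 10 the order was another: chromosome 19 had 58.4% (47.3 to 68.7%) and chromosome 6 had 65.9% (60.9 to 70.6%). The lowest value in that bin was 43.3% on chromosome 22 (31.6 to 55.9%) and the highest 69.0% on chromosome 1 (64.5 to 73.2%). The median local background at kept regions was 5.44 times the genome-wide value on chromosome 19 in WT and 4.24 times in Q592*, and 2.42 and 2.60 times on chromosome 6. The part of the background in these shares was not tested.

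**Figure D4:**
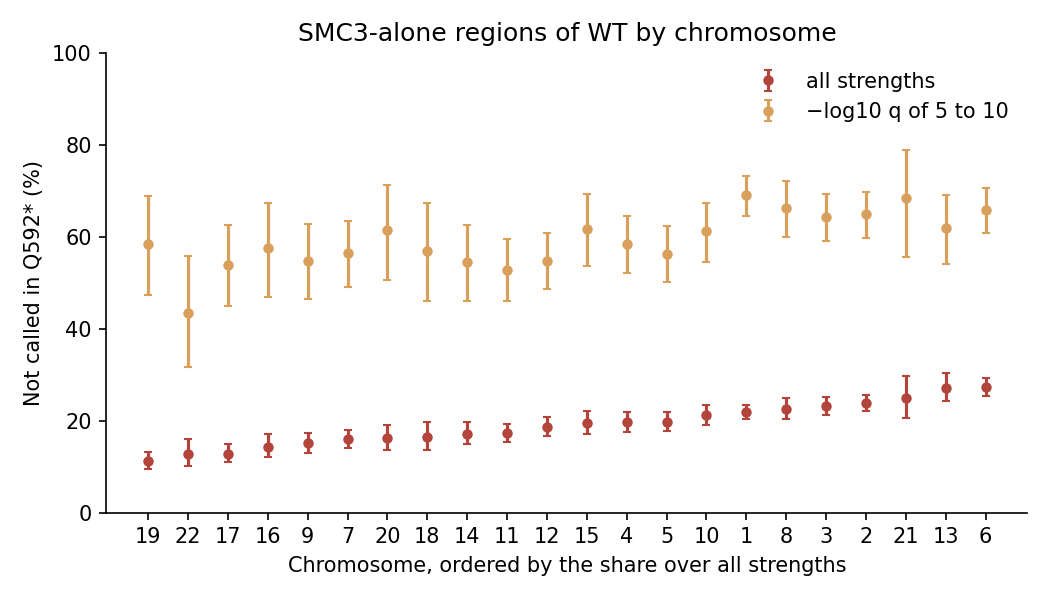
Percentage of WT SMC3-alone regions not called in Q592* on each autosome, over all strengths (dark points) and for a −log10 q of 5 to 10 (light points); whiskers are 95% Wilson intervals. The dark points rise from 11.2% on chromosome 19 to 27.2% on chromosome 6, and the light points lie between 43.3% and 69.0%.

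The share of members among the SMC3-alone regions of WT was higher in parts of the genome that are rich in GATA2 and RUNX1 regions. The autosomes were divided into windows of 5 Mb, of which 512 held at least 20 SMC3-alone regions of WT. The percentage missing from the Q592* list had a median of 17.9% and ranged from 0 (3 windows) to 68.7%, and 7 windows exceeded 50%. The windows were split into 4 groups of near-equal size by their number of GATA2 or RUNX1 regions. In the poorest group (7 to 82 each) the share was 15.1% (14.1 to 16.2%, 681 of 4511). It was 15.5% and 18.7% in the next and 26.4% (25.5 to 27.4%, 2254 of 8531) in the richest group (162 to 509 each). Across windows Pearson's r was 0.58 and Spearman's rho 0.45. The windows share the same 6 lists, so these values are descriptive. Kept regions are wider, so where GATA2 and RUNX1 peaks are dense they more readily overlap one and leave their class. The rule itself can thus raise the share in rich windows, to an extent that was not measured. This limit holds for the bins, windows and segment below too.

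The rise was also seen within bins of strength up to a −log10 q of 20. At a −log10 q of 5 to 10 the share was 49.8% (46.0 to 53.5%) in the poorest and 68.5% (66.0 to 70.8%) in the richest group, and at 10 to 20 it was 19.6% (17.1 to 22.2%) and 30.6% (28.2 to 33.0%). At 20 to 50 it was 1.82% (1.26 to 2.64%) and 2.65% (2.02 to 3.47%), with intervals that overlap. The Q592*-only regions were 8.68% (7.86 to 9.57%) of the Q592* SMC3-alone regions in the poorest group. They were 7.08% (6.45 to 7.77%) and 7.37% (6.77 to 8.02%) in the next and 8.71% (8.07 to 9.40%) in the richest. Their share was thus alike in the poorest and richest groups, but it rose from the second group to the richest. The median local background at kept regions was 1.98 times the genome-wide value in the poorest and 2.55 times in the richest group in WT, and 1.97 and 2.71 times in Q592*. Its part in these shares was not tested. Without regions above 2 times the genome-wide background the gap between the richest and poorest group was 17.8 percentage points, larger than the 11.3 over all regions. With a −log10 q of at least 10 required in all lists it was 1.07 points. That threshold changes which regions are SMC3-alone and the count of GATA2 and RUNX1 regions as well, and the cause of the change was not tested.

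The 10 windows with at least 300 GATA2 or RUNX1 regions lay on 6 chromosomes and held 409 members of 867 SMC3-alone regions (47.2%, 43.9 to 50.5%), compared with 18.9% (18.4 to 19.4%) in the other 502. In the bin of 5 to 10 the shares were 79.5% (73.6 to 84.4%) and 59.9% (58.4 to 61.5%). Q592*-only regions were also more frequent in the 10 windows, at 13.6% of the Q592* SMC3-alone regions against 7.79% in the other 502. The median background at kept regions was 2.62 times the genome-wide value there in WT and 2.94 times in Q592*, against 1.96 and 1.97 times, and its part was not tested. The threshold of 300 was chosen after the values were seen. Of the 7 windows above 50%, 5 were among these 10. On chromosome 13 there were 46 members beside 21 kept regions from 85 to 90 Mb (68.7%, 56.8 to 78.5%) and 28 beside 26 from 90 to 95 Mb. On chromosome 3 there were 41 beside 24 from 175 to 180 Mb and 43 beside 42 from 170 to 175 Mb. On chromosome 1 from 65 to 70 Mb there were 51 beside 43. The other 2 windows above 50% had fewer GATA2 or RUNX1 regions: chromosome 1 from 70 to 75 Mb (166 of them) had 20 members beside 16 kept regions, and chromosome 2 from 145 to 150 Mb (197 of them) had 19 beside 16. The largest numbers of members were 69 on chromosome 6 from 25 to 30 Mb (48.9%) and 54 on chromosome 12 from 45 to 50 Mb (41.5%). At the other end, chosen after their values were seen, chromosome 19 from 0 to 5 Mb had 3 members beside 118 kept regions, and chromosome 3 from 50 to 55 Mb had 1 beside 69.

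**Figure D5:**
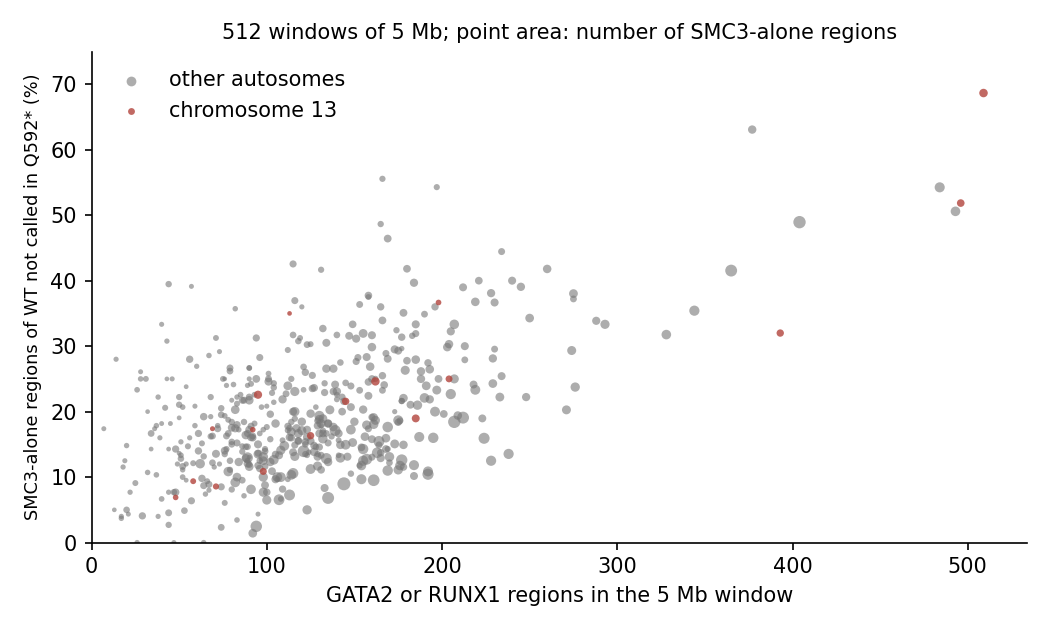
Each point is a 5 Mb window with at least 20 SMC3-alone regions of WT (512 windows); the x axis counts GATA2 or RUNX1 regions of either line, the y axis is the percentage of SMC3-alone regions not called in Q592*, and the area of a point is proportional to their number. The 10 windows with at least 300 GATA2 or RUNX1 regions lie between 31.8% and 68.7% (median 49.8%), and the other 502 lie between 0 and 55.6% (median 17.8%).

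The segment of chromosome 13 from 75 to 100 Mb, known from earlier results of these data for an excess of WT-only calls, held 112 members and 147 kept SMC3-alone regions. The members were 43.2% of these regions (37.4 to 49.3%), while elsewhere on chromosome 13 the share was 19.1% and over the remaining 21 autosomes 19.6%. For a −log10 q of 5 to 10 the 3 shares were 73.9% (62.5 to 82.8%), 52.7% (42.6 to 62.7%) and 60.8% (59.3 to 62.3%). Q592*-only regions were frequent there as well, at 19.7% of the Q592* SMC3-alone regions against 9.91% and 7.91%. The segment held 2.04% of all members and 0.66% of all kept SMC3-alone regions. Calls of the transcription factors also differed between the lines in 2 of the 5 windows of the segment, against the direction of the whole lists, where Q592* had more peaks of both. From 85 to 90 Mb GATA2 was called in 349 regions in WT against 270 in Q592*, and RUNX1 in 98 against 40. From 90 to 95 Mb the numbers of regions were 362 and 246 for GATA2 and 112 and 54 for RUNX1. At regions with GATA2 or RUNX1, 69.0% of the WT SMC3 regions in the first and 61.9% in the second of these windows had no Q592* SMC3 peak, against 48.8% over all autosomes. In the other 3 windows regions with GATA2 were more numerous in Q592*, as in the whole lists. RUNX1 was called there in 51 (WT) and 52 (Q592*) regions from 75 to 80 Mb. The numbers were 26 and 25 from 80 to 85 Mb, and 22 and 35 from 95 to 100 Mb. At regions with GATA2 or RUNX1, 53.2%, 70.5% (31 of 44) and 57.1% of the WT SMC3 regions there had no Q592* SMC3 peak. A link between these shares and the calls of GATA2 and RUNX1 in the windows was not tested. The median background at kept regions over the segment was 2.22 times the genome-wide value in WT and 2.57 times in Q592*.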

How the data were processed

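ChIP-seq lists of peaks, 1 per line and target, were analysed. Per the labels' protocols, cells were fixed with 1% formaldehyde (10 minutes) and chromatin was sheared to pieces of 200 to 400 bp. Bowtie2, MACS2, Picard and build hg19 are named, per the submitters' processing notes, with versions not given in the sources used here. Since the peaks' names contain merge, a list was read as 1 call on pooled libraries. The authors deposited for each peak a fold enrichment (a ratio), a −log10 p-value and −log10 q-value at the summit, and a score that was not used; these are the authors' values and served to describe and bin peaks within their list. The position of the summit within each peak, in bp, was also deposited. The lowest −log10 q was 2.01 in the WT and 2.00 in the Q592* SMC3 list. Coordinates are hg19, counted from 1. Whether these cells are TF-1 cannot be checked from peaks.

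Regions were built, classed and measured with Python 3.11.15, numpy 2.4.6, pandas 2.3.3 and scipy 1.17.1, and plotted with matplotlib 3.10.9. Distances run between the edges of regions. Summit reads and local background were solved from fold and −log10 p, with a pseudocount of 1 on both sides of the fold. With whole reads, 99.98% of the peaks of each SMC3 list gave back their −log10 p (tolerance 0.002), and no more than 1.45% did so if the worth of 1 read was changed by 3%. Assuming an effective genome of 2700000000 bp and fragments as long as the narrowest peak, the SMC3 ChIP pools held 103.5 (WT) and 93.4 M reads and the background pools 86.7 and 72.6 M. On simulated peaks 99.99% (WT) and 99.92% (Q592*) of summit reads came back exact. Their local backgrounds above the genome-wide value were whole numbers, and their pileups were about 3 times background or more. Members had backgrounds that were not whole as well, and folds down to 1.48, so the simulation did not cover the weakest peaks. The method cannot find a genome-wide background that is a whole number, and those of the SMC3 lists were 4.05 (WT) and 4.06 (Q592*) in units of pileup.

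The members and the lists were chosen with earlier results of these data known. Regions named are the 20 strongest members, of which part is printed, those at the edge of the rule, the 7 windows with more than 50% members and the 2 with the most members; others were chosen after their values were seen. Gene lists, promoter shares and motif shares had been planned and were not run, since no hg19 genome or annotation was used here. Alternatives were other thresholds, list lengths, overlap rules, chromosomes and a limit on background.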

Additional observations from a re-analysis of the deposited data

How the results depend on the processing

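No paired analysis was possible because each list is pooled over libraries and carries no replicate numbers, and for the same reason no library could be left out. Motif and promoter shares were not run. Of 62 planned recalculations 24 left the value within its interval (or a count within 1.5 times) and 38 moved it; the cause of the moves was not tested. Including X and Y, or leaving out chromosome 13, moved none of the values they could give. The median member rests on 33 reads at its summit, and no recalculation varied the depth.

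Requiring a −log10 q of at least 10 of the WT SMC3 list left 1356 members (4.99% of WT SMC3 regions), with a median −log10 q of 13.2, a fold of 5.10, 23.5 kb to the nearest SMC3 site of both lines, GATA2 or RUNX1 within 10 kb of 46.2%, and 1.03% in the chromosome 13 segment. Requiring it of all lists gave 3049 (11.2%), 14.0, 5.26, 28.7 kb, 36.2% and 1.18%. Trimming the WT SMC3 list to the Q592* length gave 2538 (8.02%), 10.4, 4.64, 21.4 kb, 48.8% and 1.18%. A reciprocal overlap of 50% gave 8875 (21.5%), a −log10 q of 6.63, 18.0 kb and 68.5%. Matching summits within 200 bp gave a share of 15.1%, 15.1 kb and 60.9%. Leaving out members with another list's peak within 1000 bp gave 9.97%, a −log10 q of 7.39, a fold of 3.92, 22.6 kb and 46.5%. Keeping background to at most 2 times the genome-wide value gave 17.6%, a fold of 4.15, 19.5 kb and 54.2%.

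The gap in share between windows rich and poor in GATA2 and RUNX1 regions and its alternatives were chosen after seeing the data. The gap was 11.3 percentage points, and 18.7 with 2 Mb windows, 17.8 with background at most 2 times genome-wide and 1.07 when every list was held to a −log10 q of 10. It was 10.3 without chromosome 13.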

Other observations

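The sex chromosomes lie outside the rule. On X, 148 regions carried SMC3 in WT and in no other list beside 640 SMC3-alone regions called in both lines, so that 18.8% (16.2 to 21.7%) were missing from the Q592* list, and 70 were called in Q592* alone. On Y the numbers were 26 and 37 (41.3%, 30.0 to 53.6%), and 3 in Q592* alone.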
